A study of Homo sapiens with 30 samples.

Results

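The early response to Omomyc was compared between a colorectal carcinoma line, HCT116, and a Burkitt's lymphoma line, Ramos, by asking of every gene whether its change at 6 h differed between the lines. The members are 12 of the 30 libraries of the series, 3 in each of 4 groups, and the 15562 of 57992 genes in the table whose mean reached 0.5 RPKM (reads per kilobase of transcript, normalized to the mapped reads of the library) over these 12 libraries. The groups were HCT116 cells given 2 µM Omomyc for 6 h, untreated HCT116 cells, Ramos cells given 2.5 µM Omomyc for 6 h, and untreated Ramos cells. The labels describe MYC as stabilized in HCT116 and as translocated in Ramos. Both are established cell lines, and no group carries an engineered allele. The doses differ slightly by the labels, although the study's methods name for HCT116 the dose that the labels give for Ramos. HCT116 cells received Omomyc with ProteoJuice, a protein transfection reagent, and the sources used here do not say whether untreated HCT116 cells or Ramos cells received it. Each line has a single untreated group with no time of harvest given, so the line, the reagent, the small difference in dose and any change of the cultures with time cannot be told apart in the difference between the lines. Nothing states that the 3 libraries of a group came from separate cultures, and p-values then measure only the spread between these libraries.

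Omomyc is a small protein made from the basic helix-loop-helix leucine zipper domain of MYC with substitutions in the zipper. MYC binds DNA as a heterodimer with MAX at E boxes, of which CACGTG is the canonical form. Omomyc can pair with itself, with MAX or with MYC. The study reports Omomyc at E boxes paired with itself or with MAX, and not with MYC. MAX also pairs with the MXD proteins, MNT and MGA, which repress transcription at E boxes. Immediate early genes such as those of the FOS, JUN, EGR and NR4A families are transcribed within minutes of growth factor, antigen receptor or stress signals, and many of their products, like the dual specificity phosphatases (DUSP), shut the same signals off.

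The lines matched their labels by marker genes. The summed RPKM of 20 epithelial markers was 2109 to 2437 in HCT116 libraries and 0.537 to 1.40 in Ramos libraries, where EPCAM, CDH1 and CDX2 were listed at 0. The summed RPKM of 24 B cell markers was 4311 to 4616 in Ramos libraries and 9.29 to 14.5 in HCT116 libraries, where MS4A1 and EBF1 were listed at 0 and, of the epithelial markers, CDX1 and CEACAM5 were too. Over all genes RPKM summed to 593633 to 660769 in untreated and 742468 to 836899 in treated HCT116 libraries, and to 879661 to 973736 in untreated and 832655 to 844605 in treated Ramos libraries. The signal recognition particle RNA RN7SL1 alone took 5.48 to 8.49% of it in untreated and 9.50 to 11.7% in treated HCT116 libraries. Totals of reads are not in the table, so the depth of each library is unknown.

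A change is the difference of the mean log2(RPKM + 0.5), treated minus untreated, within a line, which understates the change of genes of low level. The interaction is the HCT116 change minus the Ramos change. Genes were called at a Benjamini-Hochberg adjusted p under 0.05 in 1 limma fit over the 12 libraries. In HCT116, 7402 of 15562 genes were called (47.6%), of which 2408 were higher (15.5%) and 4994 lower (32.1%) with Omomyc. In Ramos 3477 were called (22.3%), 2123 higher (13.6%) and 1354 lower (8.7%). An absolute change of at least 1 was reached by 450 called genes in HCT116 and by 129 in Ramos. The median change over all genes was −0.10 in HCT116 and 0.01 in Ramos.

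The interaction was called for 6317 genes (40.6%), of which 1895 lay above 0 (12.2%) and 4422 below (28.4%). Most of these, 3775 genes, were called in HCT116 and not in Ramos, 1111 were called in Ramos and not in HCT116, and 343 in neither line. Called in both lines were 1796 genes. Of these, 939 changed in the same direction (6.03%), with 418 rises and 521 falls, and 857 changed in opposite directions with a called interaction (5.51%). Among the genes that changed in opposite directions, 159 rose in HCT116 and fell in Ramos and 698 fell in HCT116 and rose in Ramos. The interaction was also called for 231 of the 939 shared changes, and in 188 of those the change was larger in HCT116. Both kinds of change were mostly small: the smaller of the changes in the lines was at least 0.5 for 122 shared and 110 opposite genes, and at least 1 for 4 shared and 8 opposite genes. Across the 15562 genes the changes in the lines had Pearson's r = 0.029 and Spearman's rho = 0.061, a description across genes, which are not independent replicates. Among the 10204 genes with a mean of at least 1 RPKM in each line, 867 changed in the same and 780 in opposite directions.

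**Figure D1:**
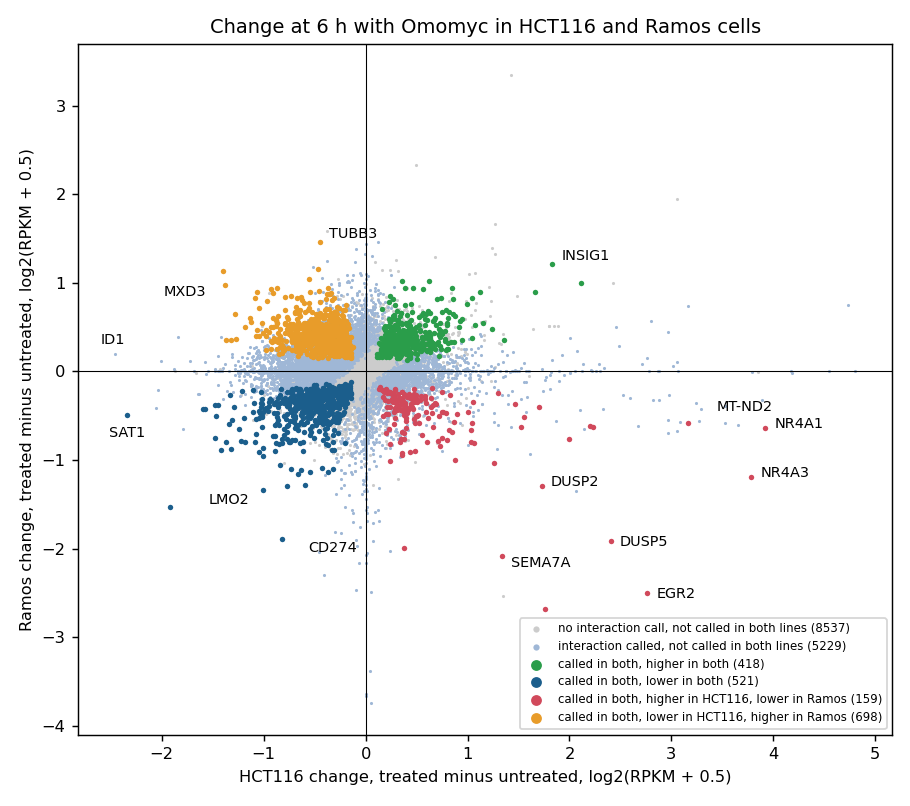
Change at 6 h in HCT116 (horizontal axis) against Ramos (vertical axis) for 15562 genes, each point a gene, on the log2(RPKM + 0.5) scale. Coloured points were called in both lines: 418 rose and 521 fell in both, 159 rose in HCT116 and fell in Ramos, and 698 fell in HCT116 and rose in Ramos, and EGR2 lies at 2.76 and −2.50.

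The direction of these counts depended on how the libraries were scaled. RPKM is relative to each library, and fewer cells with a transcript and less of it per cell cannot be told apart. The deposited values gave 159 opposite genes higher and 698 lower in HCT116, scaling to a common median ratio over all libraries gave 314 and 394, median ratios within each line 303 and 390, quantile normalization 267 and 443, and scaling every library to the same sum of RPKM 34 and 1913. Above 0 lay 1895 of 6317 called interactions as deposited, 2822 of 5952 with median ratios, 3021 of 5851 with median ratios within each line, 2559 of 5784 with quantile normalization and 536 of 9881 with equal sums. For HCT116 the called genes that were higher were 2408 of 7402 as deposited and between 644 of 9754 (equal sums) and 3781 of 7135 (median ratios within each line) otherwise, and for Ramos 2123 of 3477 and between 1601 of 3350 (median ratios) and 3172 of 3736 (equal sums). Equal sums moved the median HCT116 change over all genes from −0.10 to −0.39 and the median interaction from −0.14 to −0.55, and median ratios moved the latter to −0.02. Under all 4 other scalings, 66 of the 418 shared rises, 114 of the 521 shared falls, 32 of the 159 opposite genes higher in HCT116 and 303 of the 698 lower in HCT116 kept their call. The changes below are as deposited, and a named gene whose called change turned under a scaling is said to have done so.

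Genes that rose in HCT116 and fell in Ramos included several that encode immediate early transcription factors or inhibitors of signalling. The promoters of 3 of those named hold an E box or a CArG box, the site of serum response factor, and are shown because the E box is the site that MYC, MAX and Omomyc bind and the CArG box the classical one of immediate early genes. The sequences are from RefSeq (GRCh38.p14), in the 250 bases before a transcription start and on the gene's strand, with the motif in capitals. Of the EGR2 promoter windows, 1 holds a CArG box 71 bases before its start, at chr10:62816418-62816447, and another an E box 30 bases before its start, at chr10:62818788-62818817, with no annotated exon in either 250-base window. The E box of DUSP2 lies at chr2:96145536-96145565 and that of TNFAIP3 at chr6:137867169-137867198, in windows that overlap an annotated exon. So do the windows of MXD3, INSIG1, ASNS, CXCL8 and CCL3 below, and that of TMC6 with both of its E boxes.
EGR2, CArG box: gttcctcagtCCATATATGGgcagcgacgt
EGR2, E box: tgccggtccgccCACGTGcgcagagaggag
DUSP2, E box: cagactgcgcccCACGTGaggggcgggggc
TNFAIP3, E box: gacccagagagtCACGTGactttggaaagt

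EGR2, a zinc finger immediate early transcription factor, stood at 0.708, 0.941 and 0.491 RPKM in the untreated HCT116 libraries and at 8.47, 6.42 and 8.20 RPKM after Omomyc. In Ramos it stood at 32.7, 30.1 and 30.5 RPKM in the untreated libraries and at 5.29, 5.23 and 4.80 RPKM after Omomyc. The groups did not overlap in either line, and the treated lines ended at similar levels from opposite sides. The change was 2.76 in HCT116 (adjusted p = 8.5e-08) and −2.50 in Ramos (adjusted p = 6.2e-07), and the interaction was 5.26 ± 0.18 (SE, adjusted p = 2.2e-08).

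NR4A1 and NR4A3, orphan nuclear receptors of the immediate early class, rose steeply from low levels in HCT116. NR4A3 was at 0.167, 0.116 and 0.246 RPKM in untreated and 8.51, 7.75 and 10.3 RPKM in treated HCT116 libraries, and at 2.12, 2.45 and 1.70 RPKM in untreated and 0.613, 0.713 and 0.569 RPKM in treated Ramos libraries. Its change was 3.78 in HCT116 and −1.19 in Ramos, with an interaction of 4.97 ± 0.19 (adjusted p = 4.1e-08). NR4A1 was at 5.34, 7.28 and 6.31 RPKM in untreated and 95.0, 86.2 and 129 RPKM in treated HCT116 libraries, and went from 15.02, 13.2 and 14.2 RPKM to 8.95, 8.48 and 9.15 RPKM in Ramos. The rise in HCT116 was far larger than the fall in Ramos, at 3.92 against −0.64 (adjusted p = 0.0057 for the latter). ATF3, a stress-induced repressor of the same leucine zipper class as JUN, changed by 3.17 in HCT116 and −0.58 in Ramos.

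DUSP5 and DUSP2, nuclear phosphatases that switch off ERK, also rose in HCT116 and fell in Ramos. DUSP5 stood at 30.4, 28.8 and 30.7 RPKM in untreated and 164, 145 and 175 RPKM in treated HCT116 libraries, and at 4.21, 3.68 and 3.73 RPKM in untreated and 0.775, 0.582 and 0.641 RPKM in treated Ramos libraries. The lines moved apart from levels that already differed, and the changes of 2.40 and −1.91 gave an interaction of 4.31 ± 0.12 (adjusted p = 4.6e-09). DUSP2 was the reverse in level, at 10.8, 12.5 and 11.3 RPKM in untreated and 38.1, 38.2 and 41.8 RPKM in treated HCT116 libraries, against 257, 228 and 227 RPKM in untreated and 100, 100 and 90.1 RPKM in treated Ramos libraries. Its changes were 1.73 and −1.29, so that this gene rose from a low level in HCT116 and fell from a high level in Ramos.

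Of the other genes in this direction, SEMA7A encodes a membrane-anchored semaphorin and averaged 4.03 ± 0.246 RPKM in untreated and 11.1 ± 2.40 RPKM in treated HCT116 libraries (SD, n = 3). In Ramos it averaged 10.3 ± 1.53 RPKM in untreated and 2.04 ± 0.288 RPKM in treated libraries, with no overlap in either line and changes of 1.34 and −2.08. TNFAIP3, which restrains NF-kB, changed by 1.26 in HCT116 and −1.04 in Ramos. ADM, the vasoactive peptide adrenomedullin, changed by 1.04 and −0.79, and CD58, an adhesion ligand of T cells, by 0.80 and −0.77. All 8 of these genes, EGR2, DUSP5, SEMA7A, DUSP2, NR4A3, TNFAIP3, ADM and CD58, were named by the rule that ranks opposite genes by the smaller of their changes. TNFRSF9, a costimulatory receptor outside that rule and chosen after its values were seen, changed by 0.38 in HCT116 and −1.997 in Ramos.

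**Figure D2:**
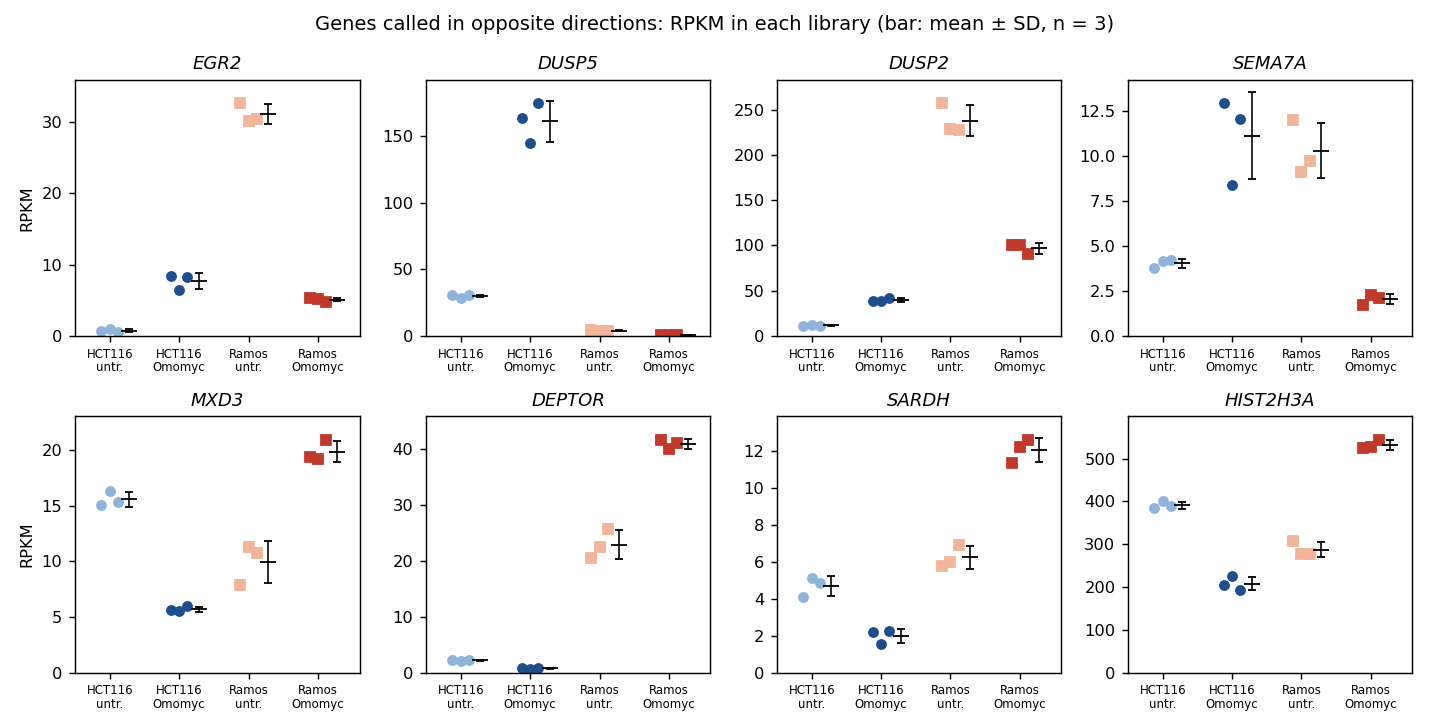
RPKM of 8 genes in each of the 12 libraries, in panels by gene, with points for libraries and bars for the mean ± SD (n = 3). EGR2, DUSP5, DUSP2 and SEMA7A rose in HCT116 and fell in Ramos, and MXD3, DEPTOR, SARDH and HIST2H3A fell in HCT116 and rose in Ramos, with no overlap between treated and untreated libraries in either line.

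The opposite set, lower in HCT116 and higher in Ramos, included 1 gene of the MYC network, an inhibitor of mTOR, and genes of metabolism and of histones. Of the MYC network, 1 other member was called the other way, higher in HCT116 and lower in Ramos. MXD3, a MAX partner that represses at E boxes, stood at 15.1, 16.4 and 15.3 RPKM in untreated and 5.59, 5.54 and 5.96 RPKM in treated HCT116 libraries. In Ramos it stood at 7.83, 11.3 and 10.8 RPKM in untreated and 19.4, 19.2 and 20.95 RPKM in treated libraries. The untreated HCT116 libraries lay above the untreated Ramos libraries and the treated ones below them, with changes of −1.38 and 0.98 and an interaction of −2.35 ± 0.15 (adjusted p = 2.3e-06). Its promoter window, which overlaps an annotated exon, holds no E box and 1 AP-1 site, the site of FOS and JUN dimers. The site lies 79 bases before the start at chr5:177312814-177312843. It is shown because FOS and JUN genes also differed between the lines, and a link was not tested. An AP-1 site was in 2.93% of windows of opposite genes lower in HCT116, beside 4.43% of all tested windows. Windows of ALDOC (E box) and TUBB3 (AP-1 site), named below, also hold a motif. Windows of named genes on 1 chromosome were not listed, so a gene given without a motif may still hold one.
MXD3, AP-1 site: gaggtcacctccTGAGTCAtacacagctga

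DEPTOR, an inhibitor of mTOR, was at 2.26, 2.04 and 2.20 RPKM in untreated and 0.746, 0.726 and 0.801 RPKM in treated HCT116 libraries, and at 20.4, 22.4 and 25.7 RPKM in untreated and 41.6, 39.9 and 40.9 RPKM in treated Ramos libraries. It was the higher gene in Ramos throughout, and the changes of −1.08 and 0.83 widened that gap. SARDH, a mitochondrial enzyme that breaks down sarcosine, changed by −1.07 in HCT116 and 0.90 in Ramos, and ALDOC, a glycolytic aldolase, by −0.97 and 0.79. PAIP2B, an inhibitor of the poly(A) binding protein, changed by −1.28 and 0.65. TUBB3, a beta tubulin best known from neurons, differed mainly through Ramos, at −0.45 and 1.46.

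Several names in this set rest on uncertain counts. HIST2H3A, a histone H3 gene, went from 384, 400 and 389 RPKM to 206, 225 and 193 RPKM in HCT116 and from 307, 278 and 278 RPKM to 524, 527 and 544 RPKM in Ramos, with changes of −0.91 and 0.89. It overlaps HIST2H4B and, like HIST2H2AA4 (−1.05 and 0.72), has near-identical copies, so that the counting could have split their reads. NPIPA5, of a multicopy family on chromosome 16, changed by −1.40 and 1.14 (adjusted p = 0.019 in Ramos), and its Ramos call was lost without treated replicate 1, at 1.01 (adjusted p = 0.073), without untreated replicate 2, at 1.13 (adjusted p = 0.050), or without untreated replicate 3, at 1.09 (adjusted p = 0.050). RAB26, a vesicle GTPase, changed by −0.87 and 0.94, and the Ramos value fell to 0.66 (adjusted p = 0.053) without untreated replicate 2 and to 0.78 (adjusted p = 0.071) without treated replicate 1.

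By the smaller of its changes, INSIG1 led the shared rises among genes of at least 1 RPKM in each line. INSIG1, which holds the sterol sensor in the endoplasmic reticulum and is itself a sterol-regulated gene, stood at 12.7, 14.7 and 12.5 RPKM in untreated and 48.7, 46.7 and 50.5 RPKM in treated HCT116 libraries. In Ramos it stood at 58.6, 49.7 and 52.6 RPKM in untreated and 123.4, 125.3 and 126.3 RPKM in treated libraries. Every treated library lay above the untreated ones of its line, and the changes of 1.83 (adjusted p = 2.3e-08) and 1.22 (adjusted p = 1.3e-06) differed by 0.62 ± 0.10 (adjusted p = 0.00063), a difference of 0.15 with no call (adjusted p = 0.31) under equal sums. The INSIG1 promoter holds an E box 55 bases before the start, at chr7:155297811-155297840, in a window that overlaps an annotated exon.
INSIG1, E box: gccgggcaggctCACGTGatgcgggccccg

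SDF2L1 and CALR, chaperones of the endoplasmic reticulum, rose in both lines. SDF2L1 rose by 0.70 in HCT116 and 0.82 in Ramos, with a difference of −0.12 ± 0.09 (adjusted p = 0.33), and CALR, calreticulin, by 0.75 and 0.67, with a difference of 0.08 ± 0.12 (adjusted p = 0.64).

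Other shared rises named by the rule, by the smaller change among genes of at least 1 RPKM in each line, were CYB561D2 (1.04 and 0.82), SLC10A3 (0.86 and 0.65), ABHD14A (0.63 and 0.66) and NPIPB3 (0.88 and 0.63). CYB561D2 encodes a membrane cytochrome and SLC10A3 a member of a solute carrier family. NPIPB3 belongs to the same multicopy family as NPIPA5, and its Ramos call (adjusted p = 0.044) was lost under most alternatives, including those without Ramos untreated replicate 1, at 0.51, and without Ramos treated replicate 2, at 0.44.

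Among shared falls, LMO2, a transcriptional adaptor of blood cells and germinal centre B cells, stood at 1.72, 1.74 and 2.21 RPKM in untreated and 0.640, 0.974 and 0.490 RPKM in treated HCT116 libraries. In Ramos it stood at 15.03, 12.2 and 12.6 RPKM in untreated and 4.58, 5.03 and 5.26 RPKM in treated libraries. Although the level in Ramos was several times that in HCT116, it fell in both, at −1.01 (adjusted p = 0.00015) in HCT116 and −1.33 (adjusted p = 7.0e-05) in Ramos, with a difference of 0.33 ± 0.20 (adjusted p = 0.21). TMC6, a membrane protein that binds zinc transporters, went from 31.7, 34.9 and 31.05 RPKM to 16.0, 15.3 and 15.2 RPKM in HCT116 and from 64.3, 66.8 and 56.6 RPKM to 33.6, 35.5 and 30.1 RPKM in Ramos. It fell in the lines by 1.04 and 0.91 on the log2 scale, with a difference of −0.13 ± 0.11 (adjusted p = 0.35), and its promoter holds an E box at chr17:78128815-78128844, 77 or 38 bases before the starts in the table, and another at chr17:78128778-78128807, 40 bases before the first of these starts.
TMC6, E box: gccgggccgggtCACGTGatagccgaggcc
TMC6, other E box: cccccccccgccCACGTGggccgggaggtg

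SLC7A11, the cystine transporter, fell by 1.42 in HCT116 and by 0.89 in Ramos, a called difference of −0.53 (adjusted p = 0.0022). PRF1, perforin, a killer cell protein found here at low level, ranged from 1.94 to 2.08 RPKM in untreated and 0.763 to 1.08 RPKM in treated HCT116 libraries, and from 2.61 to 3.41 RPKM in untreated and 0.440 to 0.498 RPKM in treated Ramos libraries. Its fall was larger in Ramos, at −1.89 against −0.82, with an interaction of 1.07 ± 0.16 (adjusted p = 0.00032). GSN, the actin-severing protein gelsolin, changed by −0.84 and −1.06, TCP11L2 by −1.19 and −0.80, NOL4L by −0.89 and −0.90, and TRIM69, a ubiquitin ligase, by −0.85 and −0.81. None of these last 4 had a called interaction.

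**Figure D3:**
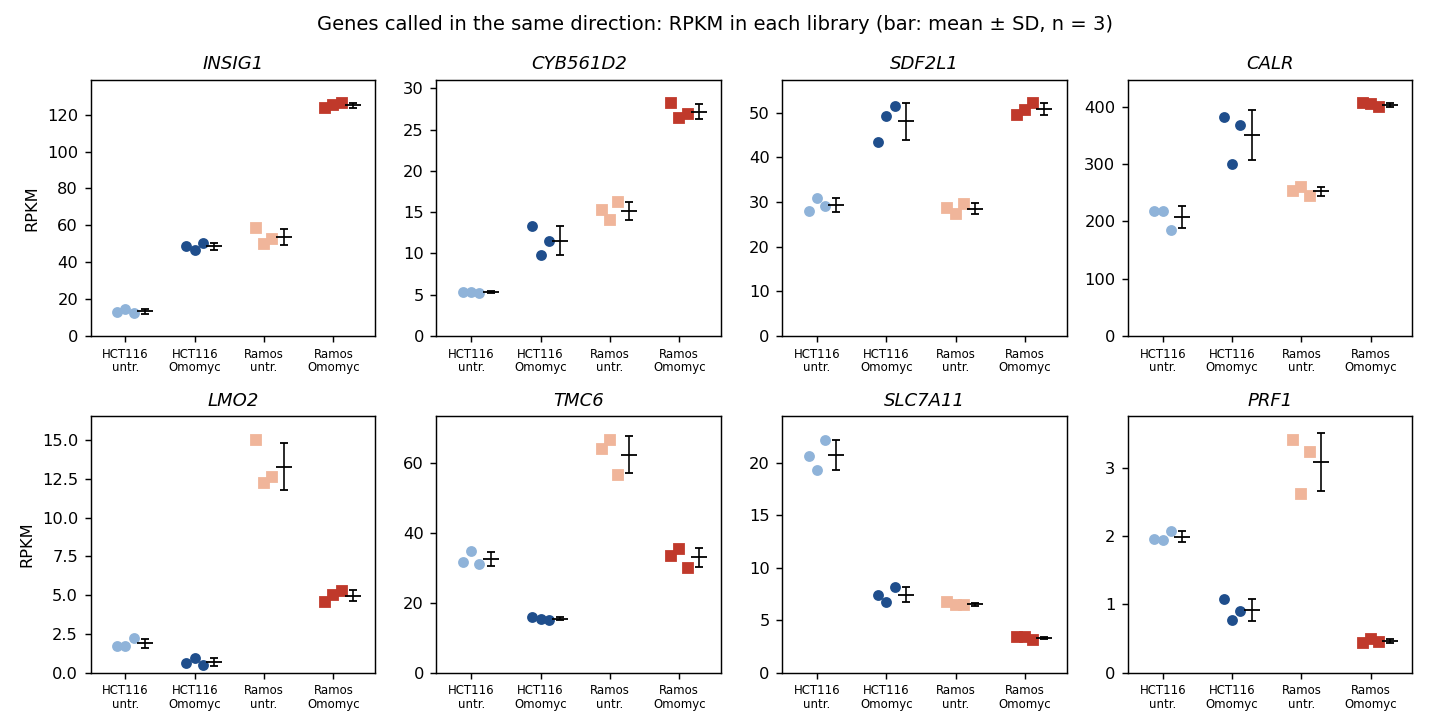
RPKM of 8 genes in each of the 12 libraries, in panels by gene, with points for libraries and bars for the mean ± SD (n = 3). INSIG1, CYB561D2, SDF2L1 and CALR rose and LMO2, TMC6, SLC7A11 and PRF1 fell in both lines, and the treated libraries lie apart from the untreated ones of their line in every panel.

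Over all promoters the motifs were counted in 15112 windows of 10327 tested genes, on both strands and without regard to overlap between motifs. The E box CACGTG was in 8.16% of these windows, the AP-1 site TGANTCA in 4.43%, the cyclic AMP element TGACGTCA in 2.36%, the ATF4 element TGATGNAA in 1.75% and the CArG box in 1.05%. The E box was in 11.8% of 466 windows of shared rises, 9.39% of 660 of shared falls, 6.99% of 186 of opposite genes higher in HCT116 and 8.79% of 751 of opposite genes lower in HCT116. The AP-1 site was in 3.86%, 4.55%, 9.14% and 2.93% of the same windows, the cyclic AMP element in 4.29%, 2.73%, 5.91% and 1.86%, and the CArG box in 1.29%, 1.52%, 2.69% and 0.666%. Among all 35116 windows of the RefSeq table, the E box was in 6.34% and the AP-1 site in 6.57%. Windows of 1 gene overlap, so these shares are a description with no test, and a match is not evidence that a factor binds there.

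MYC rose in both lines and MAX was called in neither. MYC was at 115, 116 and 124 RPKM in untreated and 156, 153 and 159 RPKM in treated HCT116 libraries, and at 131, 137 and 153 RPKM in untreated and 174, 178 and 183 RPKM in treated Ramos libraries. It rose by 0.40 (adjusted p = 0.00014) in HCT116 and 0.35 (adjusted p = 0.0012) in Ramos, with a difference of 0.05 ± 0.08 (adjusted p = 0.63), although under equal sums the HCT116 value was 0.07 with no call (adjusted p = 0.56). MAX was at 15.1 to 19.4 RPKM in untreated and 16.7 to 20.3 RPKM in treated HCT116 libraries, and at 22.9 to 24.6 and 24.4 to 25.1 RPKM in Ramos, with overlapping groups in both lines and no call. Of the 13 tested members of the MYC network, 4 rose and 5 fell in HCT116, 4 rose and 1 fell in Ramos, and the interaction was above 0 for 1 and below 0 for 5. Among all genes 15.5% rose and 32.1% fell in HCT116, and 13.6% rose and 8.7% fell in Ramos. The interaction was above 0 for 12.2% of all genes and below 0 for 28.4%. The median HCT116 change of the network was 0.10 and turned to −0.23 under equal sums, where that of all genes was −0.39. Besides MXD3, MXD4 fell by 1.02 on the log2 scale in HCT116 and had 0.34 with no call in Ramos, with an interaction of −1.37 (adjusted p = 0.00014), and MNT rose in both lines, by 0.56 and 0.66, the HCT116 call being lost under equal sums, at 0.26 (adjusted p = 0.11).

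More immediate early genes rose than fell in HCT116. Some of the tested members passed the filter on low values only through 1 line. The counts here are therefore over members with a mean of at least 1 RPKM in each line. That mean takes in treated and untreated libraries, so a gene can reach it through 1 group alone. NR4A3 did so in HCT116, at a mean of 0.176 RPKM untreated and 8.84 RPKM treated. Counts at this level, here and for the lists below, can thus lean towards genes that rose. Of the 10204 such genes of all, 18.9% rose and 35.1% fell in HCT116, and 18.1% rose and 9.03% fell in Ramos. The interaction was above 0 for 12.8% of them and below 0 for 32.3%. Of 13 tested FOS and JUN family genes 9 had this level, of which 8 rose and 0 fell in HCT116, 1 rose and 3 fell in Ramos, and the interaction was above 0 for 6 and below 0 for 0. Their medians were 0.79 in HCT116, 0.05 in Ramos and 0.62 for the interaction, beside −0.09, 0.05 and −0.14 over all genes of this level. JUN was at 7.24, 7.89 and 8.18 RPKM in untreated and 52.8, 56.0 and 57.3 RPKM in treated HCT116 libraries, while the Ramos groups overlapped at 1.94 to 3.005 and 2.31 to 2.89 RPKM. MAFK was the only member called in both lines in the same direction, at 0.49 and 0.36, the former losing its call under equal sums, at 0.16 (adjusted p = 0.17). Of 23 tested EGR, NR4A and other immediate early genes 16 had this level, of which 13 rose and 1 fell in HCT116, 3 rose and 7 fell in Ramos, and the interaction was above 0 for 13 and below 0 for 2. SRF, which binds CArG boxes, rose in both lines, by 1.36 and 0.35, with a called difference of 1.01 (adjusted p = 3.5e-06).

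Of 20 tested genes of ERK output and feedback only 8 reached 1 RPKM in each line, of which 5 rose and 0 fell in HCT116, 2 rose and 4 fell in Ramos, and the interaction was above 0 for 6 and below 0 for 1. DUSP1, a broad MAP kinase phosphatase, rose by 1.83 in HCT116, and its Ramos value was 0.13 with no call. Of 28 tested NF-kB feedback genes and targets 18 reached it. Of these, 10 rose and 1 fell in HCT116, and 4 rose and 5 fell in Ramos. A rise in both lines was called for 3, and a rise in HCT116 with a fall in Ramos for 5. Among all genes of this level 18.9% rose and 35.1% fell in HCT116, and 18.1% rose and 9.03% fell in Ramos. A rise in both was called for 3.97% of them, and a rise in HCT116 with a fall in Ramos for 1.32%. Their interaction was above 0 for 12.8% and below 0 for 32.3%. RELB rose by 1.25 and 0.47 and NFKBIA, the inhibitor of NF-kB, by 1.04 and 0.37, and the called differences of 0.77 and 0.67 lost their calls under equal sums, at 0.34 (adjusted p = 0.16) and 0.20 (adjusted p = 0.22). Medians over these members were 0.28 in HCT116 and −0.04 in Ramos for the NF-kB list and 0.92 and −0.27 for the ERK list. Over all tested members of the ERK list the HCT116 median was 0.24 and turned to −0.06 under equal sums.

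The ID genes, whose products hold other helix-loop-helix proteins off DNA, separated the lines in the other direction. ID1 stood at 264, 274 and 271 RPKM in untreated and 38.3, 55.7 and 54.2 RPKM in treated HCT116 libraries, and at 14.3, 14.5 and 13.7 RPKM in untreated and 17.1, 15.9 and 15.7 RPKM in treated Ramos libraries. It fell by 2.46 on the log2 scale in HCT116 and was not called in Ramos, at 0.19 (adjusted p = 0.25), with an interaction of −2.65 ± 0.16 (adjusted p = 1.2e-06). ID3 went from 83.4, 86.5 and 91.3 RPKM to 19.4, 23.0 and 21.5 RPKM in HCT116 and stood at 115, 112 and 118 RPKM and then 123.1, 122.8 and 128.6 RPKM in Ramos. Here both lines began at similar levels and only the HCT116 libraries dropped, with an interaction of −2.13 ± 0.09 (adjusted p = 6.0e-08), and ID2 had values of −1.45 and 0.17. Of 13 tested genes of the ID, BMP and TGF-beta feedback list 8 reached 1 RPKM in each line. Of these, 0 rose and 5 fell in HCT116, and 3 rose and 0 fell in Ramos. The interaction was above 0 for 0 and below 0 for 7. Among all genes of this level 18.9% rose and 35.1% fell in HCT116, and 18.1% rose and 9.03% fell in Ramos. Their interaction was above 0 for 12.8% and below 0 for 32.3%.

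More genes of the amino acid stress response fell than rose in each line. Of 24 tested ATF4 targets, 1 rose and 15 fell in HCT116, where 15.5% of all genes rose and 32.1% fell, and 0 rose and 9 fell in Ramos, where 13.6% rose and 8.7% fell. In both lines 6 fell, where 3.35% of all genes did. The interaction was above 0 for 4 and below 0 for 11, beside 12.2% and 28.4% of all genes. ASNS, asparagine synthetase, was at 117.5, 123.1 and 140.7 RPKM in untreated and 28.3, 25.2 and 39.6 RPKM in treated HCT116 libraries, and at 175, 156 and 166 RPKM in untreated and 147, 146 and 138 RPKM in treated Ramos libraries. Its libraries separated in both lines, but only the HCT116 change of −2.04 was called, against −0.21 in Ramos (adjusted p = 0.31), and the interaction was −1.83 ± 0.18 (adjusted p = 2.9e-05). The promoter of ASNS holds an ATF4 element 68 bases before the start, at chr7:97872458-97872487.
ASNS, ATF4 element: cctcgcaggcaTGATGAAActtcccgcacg

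PHGDH, the first enzyme of serine synthesis, had values of −1.57 and 0.11, and CTH, which makes cysteine, fell in both lines, by 0.68 and 0.60 on the log2 scale. ATF4 itself fell by 0.53 and 0.28, its Ramos value being −0.14 with no call under equal sums (adjusted p = 0.22), whereas ATF5 rose by 1.27 in HCT116 and had −0.11 in Ramos. Of 20 aminoacyl-tRNA synthetases, which load tRNAs for translation, 0 rose and 14 fell in HCT116, 0 rose and 11 fell in Ramos and 9 fell in both. The shares of all genes are those given for the ATF4 targets. CARS changed by −1.005 and −0.45 and LARS by −0.60 and −0.43, and both Ramos calls were lost under equal sums, at −0.32 (adjusted p = 0.056) and −0.29 (adjusted p = 0.063). AARS changed by −1.33 in HCT116, and its Ramos change of −0.26 (adjusted p = 0.026) was lost in most fits without 1 Ramos library, at −0.22 (adjusted p = 0.095) without untreated replicate 1. WARS, also an interferon-induced gene, went the other way, with −0.01 in HCT116 and −0.77 in Ramos. Medians of both lists were below 0 in both lines under every scaling, at −0.48 and −0.22 for ATF4 targets and −0.54 and −0.22 for the synthetases as deposited.

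Polyamine genes were mixed. SAT1, which acetylates polyamines for breakdown, went from 603, 667 and 650 RPKM to 117, 129 and 131 RPKM in HCT116 and from 51.1, 53.8 and 47.9 RPKM to 34.1, 36.3 and 37.9 RPKM in Ramos. It fell in both lines, by 2.34 and 0.49 on the log2 scale, and the fall was larger in HCT116, with an interaction of −1.85 ± 0.09 (adjusted p = 3.2e-07). PAOX, which oxidizes acetylated polyamines, changed by −0.91 and 0.50. ODC1, the rate-limiting enzyme of polyamine synthesis and a known MYC target, changed by 0.32 and 0.53, the HCT116 value turning to −0.02 under equal sums. Of the 12 genes in the list, 2 rose and 3 fell in HCT116, and 3 rose and 1 fell in Ramos. Among all genes 15.5% rose and 32.1% fell in HCT116, and 13.6% rose and 8.7% fell in Ramos.

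**Figure D4:**
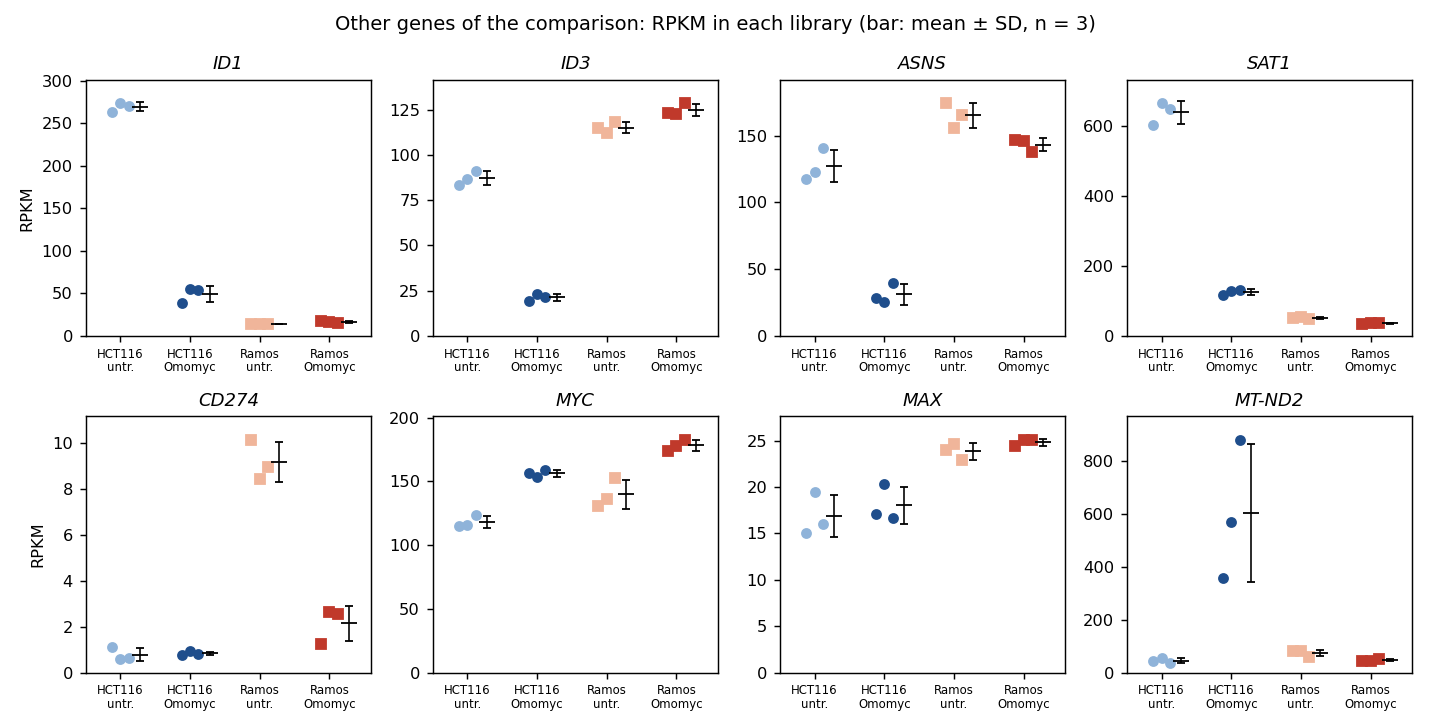
RPKM of 8 genes in each of the 12 libraries, in panels by gene, with points for libraries and bars for the mean ± SD (n = 3). ID1, ID3, ASNS and SAT1 dropped in HCT116, CD274 dropped in Ramos, MYC rose in both lines, MAX overlapped throughout, and the treated HCT116 libraries spread from 359 to 880 RPKM for MT-ND2.

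CD274, which encodes the immune checkpoint ligand PD-L1, differed through Ramos. It stood at 1.13, 0.605 and 0.617 RPKM in untreated and 0.755, 0.920 and 0.817 RPKM in treated HCT116 libraries, which overlapped, and at 10.1, 8.39 and 8.94 RPKM in untreated and 1.26, 2.62 and 2.56 RPKM in treated Ramos libraries. The change was 0.07 in HCT116 (adjusted p = 0.82) and −1.91 in Ramos (adjusted p = 9.3e-05), with an interaction of 1.98 ± 0.30 (adjusted p = 0.00039). Of 25 tested interferon-stimulated genes 12 reached 1 RPKM in each line, of which 3 rose and 9 fell in HCT116, 0 rose and 5 fell in Ramos, and 4 fell in both. Among all genes of this level 18.9% rose and 35.1% fell in HCT116 and 18.1% rose and 9.03% fell in Ramos. A fall in both was called for 4.53% of them. DDX58, the RNA sensor RIG-I, changed by −0.72 and −0.77, without a called difference.

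In the sterol synthesis list 9 of 24 genes rose in both lines, beside 2.69% of all genes. In HCT116 15.5% of all genes rose and 32.1% fell, and in Ramos 13.6% rose and 8.7% fell. A fall in HCT116 with a rise in Ramos was called for 4.49%. Of the 24, 12 rose and 4 fell in HCT116, 19 rose and 0 fell in Ramos and 4 fell in HCT116 while rising in Ramos. Medians were 0.26 and 0.46, the HCT116 value turning to −0.07 under equal sums, above the median of all genes there. MSMO1 (0.81 and 0.60) and IDI1 (0.67 and 0.58) rose in both, whereas LSS, which makes lanosterol, changed by −0.53 and 0.59 with an interaction of −1.12 (adjusted p = 3.0e-05). Of 22 genes of the endoplasmic reticulum stress list, 8 rose and 2 fell in HCT116, 9 rose and 1 fell in Ramos, and 6 rose in both, with medians of 0.09 and 0.22, the former −0.24 under equal sums. MANF, a secreted stress protein, changed by 0.41 and 0.52, the HCT116 value being 0.08 with no call under equal sums (adjusted p = 0.46), and PDIA6, a disulfide isomerase, had −0.03 and 0.64.

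Most genes of ribosome assembly rose in HCT116. There 15.5% of all genes rose and 32.1% fell, while 13.6% rose and 8.7% fell in Ramos. The interaction was above 0 for 12.2% of all genes and below 0 for 28.4%. Of the 40 ribosome assembly genes, 30 rose and 0 fell in HCT116 and 6 rose and 3 fell in Ramos. Their interaction was above 0 for 24 and below for 0. Medians were 0.31 in HCT116 and 0.32 for the interaction as deposited, and −0.02 and −0.15 under equal sums, where the medians of all genes were −0.39 and −0.55. RRP12, an export factor of ribosomal subunits, was at 21.4, 20.4 and 22.1 RPKM in untreated and 44.6, 36.3 and 40.0 RPKM in treated HCT116 libraries, and at 27.1 to 30.7 and 27.99 to 28.8 RPKM in Ramos. Only HCT116 separated, with values of 0.90 and −0.02, and GAR1, of the pseudouridylation complex, had 0.90 and −0.04. FBL, fibrillarin, changed by 0.37 and 0.46, the HCT116 value being 0.04 with no call under equal sums (adjusted p = 0.80).

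Cell cycle genes mostly fell in HCT116. Of all genes 15.5% rose and 32.1% fell in HCT116, and 13.6% rose and 8.7% fell in Ramos. A fall in HCT116 with a rise in Ramos was called for 4.49% of all genes, and a fall in both for 3.35%. Of 23 G1 cyclins, kinases and inhibitors, 3 rose and 14 fell in HCT116, 12 rose and 1 fell in Ramos, and 7 fell in HCT116 while rising in Ramos. CDKN1B, the kinase inhibitor p27, changed by −0.65 and −0.80, E2F7, a repressor of S phase genes, by −0.45 and 0.91, and CCNE2, a cyclin of S phase entry, by 0.35 and 0.66, the first of these being 0.02 under equal sums (adjusted p = 0.91). CDKN2C, the inhibitor p18, changed by −0.92 and 0.50, its Ramos call being lost without untreated replicate 3, at 0.40 (adjusted p = 0.054). Of 28 mitosis genes, 2 rose and 20 fell in HCT116, 8 rose and 10 fell in Ramos, and 6 fell in both. TOP2A, topoisomerase 2 alpha, was at 78.5 to 81.1 RPKM in untreated and 30.3 to 36.2 RPKM in treated HCT116 libraries, with changes of −1.28 and −0.03. CENPE, a kinetochore motor, changed by −0.56 and −0.41, the latter being −0.27 under equal sums (adjusted p = 0.10). CCNB1, the mitotic cyclin, was opposite, at 0.34 and −0.76, with the HCT116 value 0.01 under equal sums (adjusted p = 0.98).

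Most canonical histone genes fell in HCT116 and rose in Ramos, a pattern called for 4.49% of all genes. Of 18, 0 rose and 15 fell in HCT116, 13 rose and 0 fell in Ramos, and 12 did both. Transcripts of such genes mostly lack poly(A) tails and are retained by total RNA libraries. Summed over the 18 genes, RPKM was 6655, 6377 and 6527 in untreated and 4141, 4257 and 3663 in treated HCT116 libraries, and 6324, 6724 and 7275 in untreated and 8937, 9157 and 9867 in treated Ramos libraries. The untreated groups overlapped between the lines and the treated groups did not. Medians were −0.60 in HCT116 and 0.45 in Ramos and kept their signs under every scaling. HIST1H1C, a linker histone, changed by −1.004 and 0.43, and HIST1H3H by −0.87 and 0.58. Glycolysis genes leaned the same way: of 23, 3 rose and 13 fell in HCT116, 11 rose and 1 fell in Ramos, and 7 did both, with medians of −0.22 and 0.19. For both lists the shares of all genes were 15.5% higher and 32.1% lower in HCT116, and 13.6% higher and 8.7% lower in Ramos.

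The mitochondrial messenger RNAs had the highest median interaction of the lists, 3.52. All 13 had a called interaction above 0, 12 rose in HCT116, and none was called in Ramos, with medians of 2.97 and −0.55. Among all genes 15.5% rose and 32.1% fell in HCT116, and 13.6% rose and 8.7% fell in Ramos. The interaction was above 0 for 12.2% of all genes. Summed over the 13, RPKM was 2972, 3421 and 2407 in untreated and 13230, 20374 and 23920 in treated HCT116 libraries, and 2490, 2624 and 2257 in untreated and 1836, 1775 and 1976 in treated Ramos libraries. The treated HCT116 libraries lay above all others and differed strongly among themselves. MT-ND2, a subunit of complex I, was at 42.8, 55.8 and 36.4 RPKM in untreated and 359, 570 and 880 RPKM in treated HCT116 libraries, with an interaction of 4.26 ± 0.37 (adjusted p = 1.2e-05), beside 3.91 for MT-ND1 and 3.83 for MT-ATP8. The nuclear genome holds near copies of these genes, among which reads may be split. Abundant noncoding RNAs moved in the same libraries: of 13, 8 rose and 0 fell in HCT116 and 0 rose and 4 fell in Ramos, with a median HCT116 change of 0.75 that was 0.00 after quantile normalization. The share of RPKM in RN7SL1, given above, rose in the same libraries, and its part in these values was not tested.

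In most other lists members were called in both directions in HCT116. Of all genes 15.5% rose and 32.1% fell in HCT116, and 13.6% rose and 8.7% fell in Ramos. Over all tested members, the heat shock, NRF2, BCL2, circadian and epithelial lists held more rises than falls in HCT116, unlike all genes. The HCT116 medians of these lists turned under equal sums, as given below. Among members with a mean of at least 1 RPKM in each line, rises and falls in HCT116 were equal for NRF2 (6 and 6) and circadian genes (3 and 3). They were 5 and 1 for heat shock and 7 and 2 for BCL2 genes, beside 18.9% and 35.1% of all genes of this level. No epithelial marker reached it in both lines. Of 25 p53 targets, 9 rose and 12 fell in HCT116 and 5 rose and 4 fell in Ramos, PLK3 having values of 1.39 and −0.26. Of 19 heat shock protein genes, 6 rose and 2 fell in HCT116 and 2 rose and 2 fell in Ramos. Of 20 antioxidant targets of NRF2, 7 rose and 6 fell in HCT116 and 6 rose and 2 fell in Ramos. Of 17 BCL2 family genes, 7 rose and 5 fell in HCT116 and 3 rose and 5 fell in Ramos. The proapoptotic BCL2L11 (0.38 and −0.76) and BAK1 (0.46 and −0.40) were called in opposite directions, but their HCT116 rises were not called under equal sums, at 0.06 (adjusted p = 0.70) and 0.13 (adjusted p = 0.28), nor was the fall of BAK1 in Ramos, at −0.27 (adjusted p = 0.083). Of 14 circadian genes, 5 rose and 4 fell in HCT116 and 2 rose and 1 fell in Ramos, with PER1 (0.67 and −0.63) and NR1D2 (−0.54 and 0.57) opposite to each other and between the lines. Of 11 tested WNT targets, 1 rose and 4 fell in HCT116 and 0 changed by call in Ramos. Under equal sums the median HCT116 change turned from 0.08 to −0.26 for heat shock protein genes, from 0.16 to −0.17 for NRF2 targets, from 0.03 to −0.14 for BCL2 family genes, from 0.09 to −0.23 for circadian genes and from 0.12 to −0.22 for epithelial markers, and the median Ramos change turned from −0.05 to 0.07 for p53 targets and from −0.05 to 0.09 for mitosis genes. Of 14 tested epithelial markers 5 rose and 4 fell in HCT116 and 0 rose and 2 fell in Ramos, and of 23 tested B cell markers 0 rose and 4 fell in HCT116 and 5 rose and 4 fell in Ramos.

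**Figure D5:**
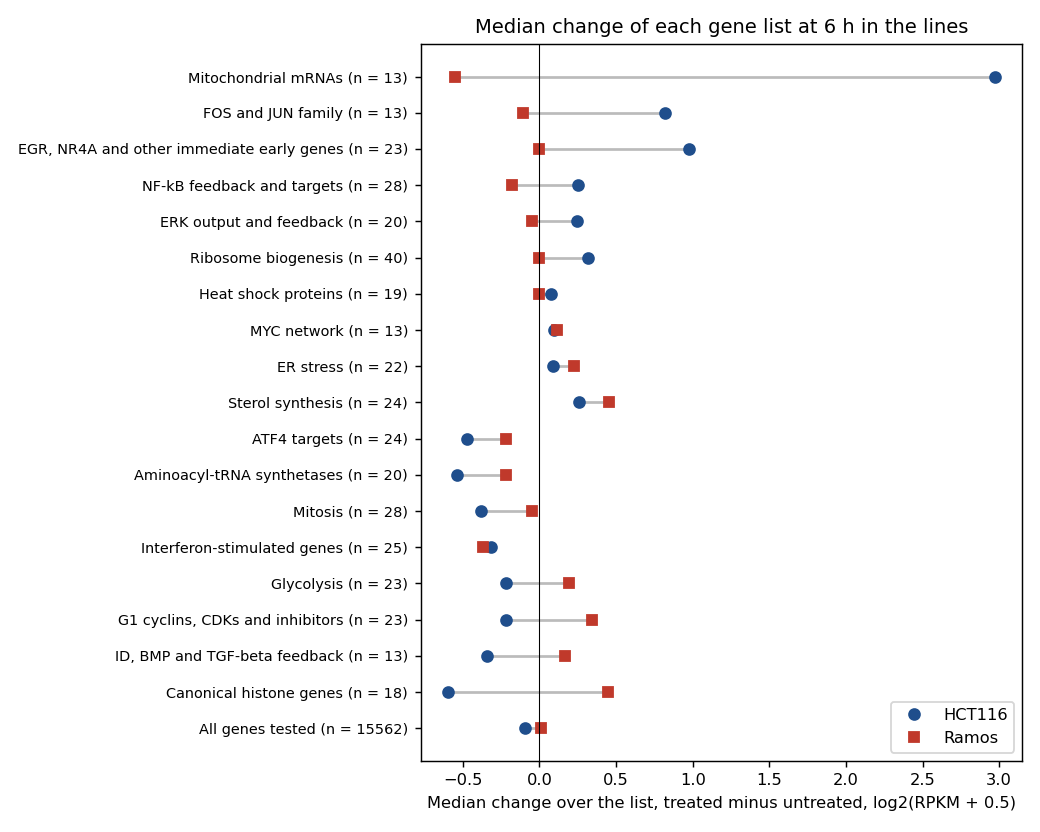
Median change over the tested genes of 18 lists and over all 15562 genes, with 1 row per list, in HCT116 (circles) and Ramos (squares) on the log2(RPKM + 0.5) scale. Of the medians shown, those of the mitochondrial mRNAs (2.97 and −0.55) and canonical histone genes (−0.60 and 0.45) lie farthest apart. The medians take in members expressed in 1 line only, and this order depends on them. Over members with a mean of at least 1 RPKM in each line, the ERK output and feedback list had 0.92 and −0.27. The canonical histone genes of this level had −0.72 and 0.45. ATF4 targets, aminoacyl-tRNA synthetases, interferon-stimulated genes and mitosis genes lie below 0 in both lines, the last at −0.38 and −0.05.

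For genes expressed in 1 line, with a mean of at least 2 RPKM there and under 0.5 RPKM in the other, no interaction is read. Of 16 tested targets of YAP and TEAD, none reached 1 RPKM in both lines, and 8 rose and 2 fell in HCT116, where 15.5% of all genes rose and 32.1% fell. Members could pass the filter on low values through 1 line, and its mean takes in treated libraries. These counts can thus lean towards genes that rose, and the shares of all genes include genes expressed only in Ramos. The HCT116 median of the YAP and TEAD list, 0.29, turned to −0.02 under equal sums. CYR61, a matricellular protein of that list, went from 4.43, 4.44 and 4.60 RPKM to 129, 82.0 and 147 RPKM in HCT116 and was listed at 0 in every Ramos library, as was CTGF, which changed by 4.18. CXCL8, the neutrophil chemokine, changed by 4.19 in HCT116, where its promoter holds an AP-1 site at chr4:73740420-73740449. Falls of this kind in HCT116 were those of TNFRSF6B (−1.55), the decoy receptor of FAS ligand, NOTCH3 (−1.47) and the kinase inhibitor CDKN1C (−1.45).
CXCL8, AP-1 site: taggaagtgtgaTGACTCAggtttgccctg

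In Ramos the largest falls of such genes were in chemokines and a B cell receptor-like gene. CCL3, a chemokine of activated B cells and macrophages, went from 20.9, 19.95 and 18.1 RPKM to 1.11, 1.13 and 0.790 RPKM, a change of −3.75 (adjusted p = 1.9e-08), with at most 0.109 RPKM in any HCT116 library. CCL1 (−3.66) and FCRL5 (−3.64), an Fc receptor-like protein, were listed at 0 in HCT116. Rises of this kind in Ramos were those of CSDC2 (1.32), VPREB3 (1.31), a chaperone of the pre-B cell receptor, and SELPLG (1.23), a ligand of selectins. The CCL3 promoter holds an E box 135 bases before the start, at chr17:36089971-36090000, and is shown for comparison with CXCL8.
CCL3, E box: agttctctgcatCACGTGagtctgagtttc

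The same genes at other doses and times of the series give a setting for these values, without a test, because all groups of a line share its untreated libraries and the labels' time tag does not match the titles of the 24 h libraries. EGR2 changed by 2.76 at 2 µM and 1.76 at 10 µM after 6 h in HCT116 and by 0.15 and −0.68 after 24 h. In Ramos it changed by −1.81 at 0.5 µM and −2.50 at 2.5 µM after 6 h and by 0.19 and −1.10 after 24 h. The rise in HCT116 was thus present at both doses at 6 h and the fall in Ramos at both doses at 6 h and at the higher dose at 24 h. DUSP5 followed the same course, with 2.40, 1.93, 0.01 and −0.20 in HCT116 and −1.84, −1.91, 0.01 and −1.21 in Ramos, in the same order. MXD3 changed by −1.38 and −1.03 in HCT116 at 6 h and by 0.20 and 0.19 at 24 h, and by 0.84 and 0.98 in Ramos at 6 h and 0.01 and 0.14 at 24 h.

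INSIG1 and LMO2, which changed in the same direction, were nearer to 0 at 24 h than at 6 h at each dose. INSIG1 changed by 1.83 and 1.77 at 6 h and 0.70 and 1.09 at 24 h in HCT116, and by 0.90 and 1.22 at 6 h and 0.01 and 0.42 at 24 h in Ramos. LMO2 changed by −1.01 and −0.89 at 6 h and −0.31 and −0.47 at 24 h in HCT116, and by −0.91 and −1.33 at 6 h and 0.12 and −0.61 at 24 h in Ramos. ID3 in HCT116 was low at both times, with −2.008 and −1.997 at 6 h and −1.78 and −2.20 at 24 h. CD274 in Ramos changed by −1.60 and −1.91 at 6 h and by 0.11 and −0.79 at 24 h. MYC changed by 0.40 and 0.35 at 6 h and by −0.30 at both doses at 24 h in HCT116, and by 0.04 and 0.35 at 6 h and 0.04 and 0.27 at 24 h in Ramos.

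In HCT116 8430 genes (54.2%) and in Ramos 6153 (39.5%) kept every treated library on 1 side of every untreated one, so a lack of overlap was common. For any gene the exact two-sided permutation test of 3 against 3 libraries cannot go below p = 0.1.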

How the data were processed

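RNA was sequenced as stranded total RNA after removal of ribosomal RNA, per the labels. The authors deposited RPKM per gene for all libraries in 1 table. RSEM is named in the submitters' processing notes, and its version, the aligner, the genome build and the annotation are not given in the sources used here. The values are already normalized for length and depth, read totals are unknown, and no count test was run.

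Of 57992 genes in the table, 57388 matched GENCODE 29 (GRCh38) by identifier and 604 did not. Libraries were grouped by their labels, and 18 libraries at other doses and times entered no test. Log2(RPKM + 0.5) of the 15562 genes with a mean of at least 0.5 RPKM was fitted in limma 3.58.1 (R 4.3.3) with 1 mean per group and moderated variances with a trend, and contrasts within each line and of their difference were adjusted by Benjamini-Hochberg over all genes. Promoter windows were read from a RefSeq table (GRCh38.p14), where 41 of 58 named genes had one. In 1 simulation with 200 genes whose interaction was set to 1 (log2), 171 were recovered (85.5%) with 19 other calls among 15562. In this run the 19 other calls beside the 171 exceed the share of 0.05 set by the threshold. The 200 genes were drawn from those with a mean of at least 2 RPKM. Each gene had 1 spread for all groups, and the libraries did not differ in scaling. The recovery therefore does not cover genes nearer the filter on low values or shifts in scaling.

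The alternatives were 4 scalings, 2 pseudocounts, other filters, variance settings and thresholds, a replicate block and leaving out each library. Named genes are protein coding with a symbol and a mean of 1 RPKM in each line: the 8 highest and 8 lowest interactions, the 8 shared rises and falls and the 8 opposite genes of each kind with the largest smaller change, and up to 4 members by interaction and 4 by shared change in each of 29 lists. The minimum was not asked of the 3 rises and falls of genes expressed in 1 line and of the 7 genes of the study, and markers and RN7SL1 are given outside the rule. The members, lists and tests were chosen with earlier results of these data known. The values of 1 gene that this rule names are not reported here.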

Additional observations from a re-analysis of the deposited data

Results flagged for a closer look

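The change at 6 h differed between HCT116 and Ramos for 6317 genes by the test of the interaction, and 857 of these were called in opposite directions in the lines. The interaction, HCT116 change minus Ramos change on the log2(RPKM + 0.5) scale, was above 0 for the immediate early and signalling genes EGR2 (5.26), NR4A3 (4.97), NR4A1 (4.56), DUSP5 (4.31), ATF3 (3.75), SEMA7A (3.42), DUSP2 (3.02) and TNFAIP3 (2.30), and for CD274 (1.98), ADM (1.83) and CD58 (1.57). It was above 0 for the mitochondrial MT-ND2 (4.26), MT-ND1 (3.91) and MT-ATP8 (3.83), whose treated HCT116 libraries differed widely among themselves. It was below 0 for ID1 (−2.65), NPIPA5 (−2.53), MXD3 (−2.35), ID3 (−2.13), SARDH (−1.97), PAIP2B (−1.93), DEPTOR (−1.91), TUBB3 (−1.91), SAT1 (−1.85), ASNS (−1.83), RAB26 (−1.81), HIST2H3A (−1.80), HIST2H2AA4 (−1.77) and ALDOC (−1.76). The gap test for an outlying library was not run, because it needs more than the 3 libraries of a group, and fits without each library in turn were made for all of these values.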

How the results depend on the processing

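Of 232 values of 102 named genes, 207 kept their direction and call in every fit and scaling at the same threshold, 24 lost the call in at least 1 without turning, and 1 turned: the HCT116 change of ODC1 was −0.021 under equal sums of RPKM against 0.32. Under equal sums the interaction was called for 9881 genes, 388 genes were shared and 1947 opposite. At an adjusted p under 0.01 there were 5279 calls in HCT116, 1867 in Ramos, 4027 for the interaction, 395 shared and 380 opposite, and with an absolute change of at least 1 there were 450, 129, 806, 4 and 8. Without 1 library at a time the counts ranged from 6282 to 7575 in HCT116, 2531 to 3967 in Ramos, 5466 to 6310 for the interaction, 661 to 1040 shared and 596 to 914 opposite. Replicate numbers did not pair the libraries, since same-numbered deviations within a line correlated at −0.11 to 0.0016, and with the replicate block 6786, 2726, 5502, 704 and 624 genes were called, in the same order. Separate fits of each line called 6240 genes in HCT116 and 3052 in Ramos. The unknown depth limits what can be said of genes near the filter on low values.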
